A study of Rattus norvegicus with 8 samples.

Results

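The NR4A family of orphan nuclear receptors was followed through 4 h of exposure to a nitric oxide donor in rat pulmonary artery smooth muscle cells. Its 3 genes, Nr4a1, Nr4a2 and Nr4a3, were taken as every probe set annotated to a single one of these symbols. That gave 3 of the 4736 genes named by such probe sets, and 7 of the 8799 probe sets on the array: 2 for Nr4a1, 2 for Nr4a2 and 3 for Nr4a3. Of the 7, 6 passed the filter on low signals and were tested. RNA came from primary smooth muscle cells (RPaSMC) that grew out of pulmonary artery explants of adult Sprague-Dawley rats, after endothelium and adventitia had been removed. The cells were exposed to S-nitrosoglutathione (GSNO), which releases nitric oxide, for 1, 2 or 4 h, or were left untreated as control, with 2 Affymetrix rat U-34A arrays in each of the 4 groups, numbered 1 and 2. The concentration of GSNO is 100 μmol/L in the series design and 100 mmol/L in the treatment protocol, and neither was taken as correct here. The control is 1 group with no stated time, so that time in culture and GSNO cannot be told apart. The design names a pair of cell preparations but does not tie them to the array numbers. Should both arrays of a group stem from 1 preparation, the p-values below cover technical spread alone.

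NR4A receptors are transcription factors of the nuclear receptor superfamily that are called orphan because no physiological ligand is settled for them. Their ligand-binding pocket is filled by bulky side chains, so their activity depends largely on how much receptor a cell makes. They are immediate early genes, transcribed within minutes of a stimulus without new protein synthesis, in many cells through the factor CREB on cAMP response elements (CRE). They bind the NBRE element as monomers, and Nr4a1 (also called Nur77 or NGFI-B) and Nr4a2 (Nurr1) also pair with the retinoid X receptors, which Nr4a3 (NOR-1 in most species) is not known to do. In vascular smooth muscle they are known as rapid responders to growth factors, and overexpressed Nur77 restrains smooth muscle proliferation in mice.

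The signals are per probe set on a linear scale, and each array's trimmed mean lay between 500.7 and 501.0. Median signals ran from 99.7 to 140.5, and the 40th percentile used as the filter from 57.2 to 91.0. Of 8 smooth muscle markers on the array, 7 (Acta2, Tagln, Myh11, Cnn1, Myl9, Tpm2 and Cald1) reached that percentile on all 8 arrays, while Des, the muscle intermediate filament, did not pass the filter. Of the markers of other cells on the array, 3 of 6 endothelial, 3 of 5 macrophage and leukocyte and 2 of 6 lung epithelial ones passed, and Flt1, Cd14, Sftpb and Krt8 reached the percentile on all 8 arrays. The endothelial Kdr, Vwf and Sele, the leukocyte Itgam and Lyz2 and the epithelial Sftpa1, Sftpc, Sftpd and Scgb1a1 did not pass. The summed signals of these 3 lists ran from 319 to 1018 over the 8 arrays, against 46566 to 74740 for smooth muscle. All 6 fibroblast and adventitia markers on the array passed it. Their summed signal was 11955 and 27073 at 1 h, 13097 and 21365 at 2 h and 17658 and 15142 at 4 h on arrays 1 and 2, against 20519 and 25329 in control, and their part in the NR4A values was not tested. In such bulk RNA, a change in the share of cells that express a gene and a change per cell cannot be told apart.

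The start regions of 2 of the genes are shown because all 3 genes moved together at 1 h. CREB sites are the element best known to switch these genes on. Whether CREB acted on them in these cells was not tested. The windows are those of RefSeq on the GRCr8 assembly and run 5′ to 3′ on the gene's strand, from 250 bases before to 50 bases after a start of transcription. Nr4a1 lies on chromosome 7 (134247153 to 134268044), and its window is chr7:134259888-134260187 on the plus strand. Nr4a2 lies on chromosome 3 (62098739 to 62115926), and its window is chr3:62104838-62105137 on the minus strand. Both windows belong to a start inside the annotated gene, 12985 bases from its outer 5′ end for Nr4a1 and 11039 bases for Nr4a2, so each gene has other starts that are not shown. Nr4a3 lies on chromosome 5 (67157141 to 67198287), and the set of windows held none for it. Capitals mark the 5-base core of the CRE, TGACG on this strand or CGTCA where it reads on the opposite strand.
Nr4a1: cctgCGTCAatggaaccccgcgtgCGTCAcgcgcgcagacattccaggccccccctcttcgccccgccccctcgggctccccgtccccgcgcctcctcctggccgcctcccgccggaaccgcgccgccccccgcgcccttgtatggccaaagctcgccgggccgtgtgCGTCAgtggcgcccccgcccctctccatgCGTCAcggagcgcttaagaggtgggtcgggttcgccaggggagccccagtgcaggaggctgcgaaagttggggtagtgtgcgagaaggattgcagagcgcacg
Nr4a2: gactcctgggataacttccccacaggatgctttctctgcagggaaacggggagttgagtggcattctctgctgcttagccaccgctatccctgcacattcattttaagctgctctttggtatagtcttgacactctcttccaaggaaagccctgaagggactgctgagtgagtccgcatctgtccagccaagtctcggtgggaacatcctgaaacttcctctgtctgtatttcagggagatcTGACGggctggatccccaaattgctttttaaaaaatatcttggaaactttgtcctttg

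The Nr4a1 window held 4 CRE cores, all on the opposite strand, with the first base 246, 226, 82 and 53 bases upstream of the start. The Nr4a2 window held 1, on the gene's own strand and 8 bases upstream. Among 33469 rat promoter windows of this length, 21.2% held at least 1 core and 0.236% held 4 or more. GC content was 72.3% in the Nr4a1 window and 48.7% in that of Nr4a2. Among the 3458 windows within 5 points of the GC content of Nr4a1, 31.2% held a core and 0.549% held 4 or more. Each of the 4 cores of Nr4a1 stood in the same 7 letters, TGCGTCA, which was noticed only once the sequence had been seen. On either strand, 1.90% of all windows held TGCGTCA, and Nr4a1 was the 1 window with 4 of them. Neither window held the full CRE TGACGTCA (1.83% of all windows), the NBRE AAAGGTCA to which the receptors themselves bind (1.43%), the TATA box TATAAA (14.2%) or the CArG box of serum response genes (1.64%), on either strand.

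GSNO was followed within 1 h by a rise of all 3 genes, each on at least 1 probe set. At 1 h, 5 of the 6 tested NR4A probe sets were higher than control (limma, adjusted p under 0.05), where 0.493% of all 5877 tested probe sets were called higher and 0.034% lower. Their log2 fold changes of 4.24 to 5.28 put them at ranks 2, 3, 5, 7 and 9 among all tested probe sets, whose median was -0.05. The probe set above them was L26292_g_at of Klf4, at 5.53. At 2 h the same 5 were higher, against 0.783% of all probe sets called higher and 0.187% lower, and at 4 h 1 was, against 0.953% higher and 0.579% lower. The F test over the 3 times called 5 of the 6, against 1.14% of all. With array number as a replicate block the F test called all 6, where it called 349 of the 5877. The 3 comparisons share their control arrays. The rise was seen within each run, since arrays numbered 1 and 2 were scanned in separate runs and each number holds all 4 groups. Among arrays numbered 1, that of 1 h had a chip lot to itself, so there the lot and 1 h of GSNO cannot be told apart. The array records also place the control and 2 h arrays numbered 1 in the same experiment, and the 1 h and 4 h arrays in a different experiment. Among arrays numbered 1, the comparisons of 1 h and 4 h with control thus cross experiments. Between the arrays numbered 2, which share a chip lot and a recorded experiment, the 5 probe sets had log2 fold changes of 4.35 to 5.96 at 1 h. Without either 1 h array the count at 1 h fell to 1, and it was 4 and 3 without control array 1 and 2, in fits with fewer arrays. The count at 2 h was 2 without either control array, and 3 and 2 without 2 h array 1 and 2. The F test called 2 and 1 without control array 1 and 2, and 1 and 3 without 1 h array 1 and 2.

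**Figure D1:**
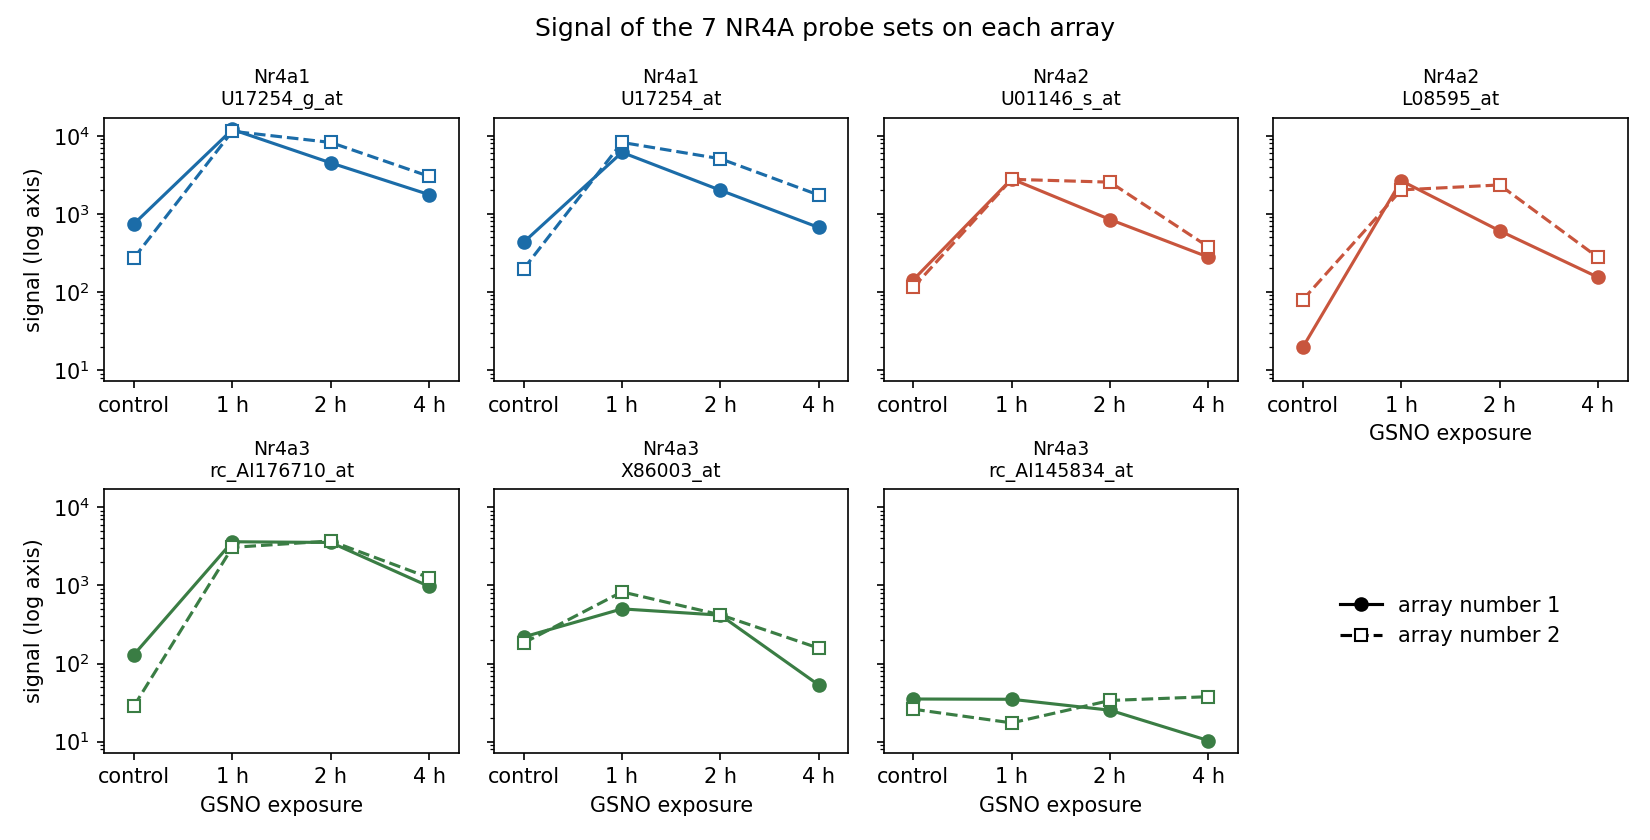
Signal of the 7 NR4A probe sets on each of the 8 arrays, on a log axis, in control and after 1, 2 and 4 h of GSNO, with arrays numbered 1 as filled circles and arrays numbered 2 as open squares. All probe sets but rc_AI145834_at stood above control at 1 h on both arrays, with Nr4a1 reaching 12030 and 11413.

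Nr4a1, an activator of metabolic and stress genes that is best studied in T cells, muscle and liver, peaked at 1 h on both of its probe sets. Its probe set U17254_g_at read 745 and 272 in control, 12030 and 11413 at 1 h, 4495 and 8207 at 2 h, and 1763 and 3020 at 4 h, on arrays 1 and 2. On the arrays of each number the order was 1 h, 2 h, 4 h, control, and no GSNO group overlapped control. At 1 h the mean was 11722 ± 436, against 508 ± 334 in control (SD, n = 2 each). The log2 fold change was 4.63 ± 0.49 (SE, limma; adjusted p = 0.00638). The fold change was 3.68 at 2 h (adjusted p = 0.0135). At 4 h it was 2.30, which missed the threshold (adjusted p = 0.0739) and passed it when array number entered as a replicate block (adjusted p = 0.00968).

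The other Nr4a1 probe set comes from the same sequence record, so the pair is no independent repeat. U17254_at read 432 and 197 in control, 6127 and 8212 at 1 h, 2005 and 5077 at 2 h, and 669 and 1741 at 4 h. Its log2 fold changes were 4.50 at 1 h (adjusted p = 0.0172) and 3.35 at 2 h (adjusted p = 0.0453). At 4 h it was 1.81 (adjusted p = 0.236, and 0.0431 with the replicate block). Over the 8 arrays the log2 signals of the pair correlated at r = 0.986, a description of probe sets that share every array. The fall from 1 h to 4 h was smaller in both on the arrays numbered 2. On arrays numbered 1 and 2 the log2 change was -2.76 and -1.91 for U17254_g_at, and -3.16 and -2.22 for U17254_at. At 4 h U17254_g_at stood 1.22 and 3.37 above control on arrays numbered 1 and 2. That gap also holds the difference between the numbers already present at 1 h, when it stood 3.98 and 5.28 above control.

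Nr4a2, which is required for the making of midbrain dopamine neurons, followed a like course. Signals of different probe sets are not compared as levels, since probe sets differ in how they bind. U01146_s_at read 143 and 114 in control, 2802 and 2768 at 1 h, 846 and 2545 at 2 h, and 279 and 378 at 4 h. The 1 h arrays lay close together at 2785 ± 24.6 (SD, n = 2), against a mean of 129 in control. The log2 fold change was 4.24 ± 0.46 (SE, limma; adjusted p = 0.00687). At 2 h it was 3.32 (adjusted p = 0.0144), with the 2 h arrays far apart. At 4 h both arrays were still above both control arrays, yet the fold change of 1.22 did not pass the test (adjusted p = 0.348, and 0.0817 with the block).

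L08595_at also rose at 1 h, but on arrays numbered 2 it was highest at 2 h. It read 19.7 and 79.5 in control, 2653 and 2026 at 1 h, 607 and 2343 at 2 h, and 154 and 277 at 4 h. Control array 1 lay below its array's 40th percentile, so the fold change depends on the offset added before log2. The fold changes were 5.19 ± 0.65 at 1 h (SE; adjusted p = 0.0141) and 4.25 at 2 h (adjusted p = 0.0244). At 4 h the fold change was 1.83 (adjusted p = 0.299), which passed only with the replicate block (adjusted p = 0.0275), and it was 1.08 with an offset of 100. The log2 signals of both Nr4a2 probe sets correlated at r = 0.978 over the 8 arrays.

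Nr4a3, named for its discovery in neurons and known in human sarcomas as a fusion partner, was the gene whose probe sets differed most in fold change from control. rc_AI176710_at read 130 and 28.6 in control, 3624 and 3071 at 1 h, 3547 and 3712 at 2 h, and 971 and 1256 at 4 h. Its 2 h values overlapped those at 1 h, and all 6 GSNO arrays stood above both control arrays, of which number 2 was below the 40th percentile. The mean was 3348 ± 391 at 1 h, 3630 ± 117 at 2 h and 1114 ± 202 at 4 h, against 79.4 ± 71.7 in control (SD, n = 2 each). The log2 fold changes were 5.28 ± 0.46 at 1 h, 5.40 at 2 h and 3.70 at 4 h (SE; adjusted p = 0.00399, 0.00192 and 0.00829). These sizes also depend on the offset: they were 5.74, 5.86 and 4.15 with an offset of 1, and 4.32, 4.44 and 2.81 with an offset of 100. It was the 1 NR4A probe set called at 4 h, where it ranked 20 from the top of the 5877. Without 4 h array 2 that call was lost.

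X86003_at, also annotated to Nr4a3, read 219 and 183 in control, 501 and 826 at 1 h, 416 and 421 at 2 h, and 53.1 and 157 at 4 h. On each array number the order was 1 h, 2 h, control, 4 h, so this probe set stood below control at 4 h while rc_AI176710_at stood above it. Its 4 h signal on array 1 lay under that array's 40th percentile of 57.2, and between arrays numbered 2 the log2 change at 4 h was -0.20. Its log2 fold changes were 1.59 at 1 h (adjusted p = 0.462), 0.99 at 2 h (adjusted p = 0.828) and -0.94 at 4 h (adjusted p = 0.487), none of which passed. With the replicate block the 1 h value had an adjusted p of 0.0701, and with the experiment named in each array's record as the block the fold change was 2.13 with an adjusted p of 0.0264. The fold change of rc_AI176710_at exceeded that of X86003_at by 3.69, 4.41 and 4.64 at 1, 2 and 4 h, and the signals of the pair correlated at r = 0.493. The third, rc_AI145834_at, read 10.3 to 37.6 over all 8 arrays and reached the 40th percentile on 0 of them. Which part of the Nr4a3 transcripts each probe set detects was not analysed here.

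**Figure D2:**
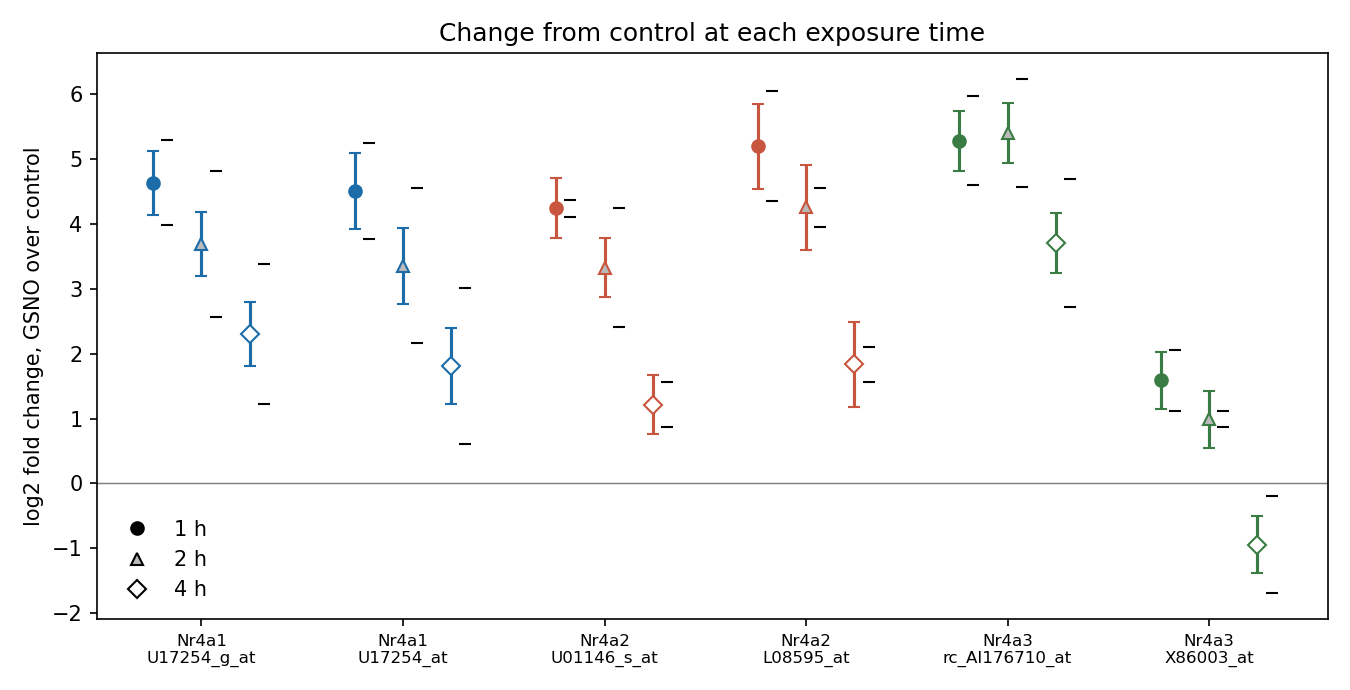
Log2 fold change against control of the 6 tested NR4A probe sets at 1, 2 and 4 h of GSNO, with standard errors from the fit and black dashes for the change within each array number. The 5 called at 1 h lie between 4.24 and 5.28, and X86003_at of Nr4a3 lies at 1.59 and passes below 0 at 4 h.

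Signals moved unevenly after 1 h, by probe set and by array number. No tested NR4A probe set was called between 2 h and 1 h. In that comparison limma called 0.0% of all probe sets, and 164 of the 5877 had an unadjusted p under 0.05. The 2 h values of U17254_g_at, U17254_at, U01146_s_at and X86003_at lay below their 1 h values without overlap. At 2 h Nr4a1 U17254_g_at held 37.4% of its 1 h signal on arrays numbered 1 and 71.9% on those numbered 2. For Nr4a2 U01146_s_at this share was 30.2% and 92.0%, and for L08595_at 22.9% and 116%. The arrays numbered 2 thus kept more of the 1 h signal of Nr4a1 and Nr4a2. Nr4a3 rc_AI176710_at held 97.9% and 121%, and X86003_at 83.1% and 50.9%. The log2 change of rc_AI176710_at after 1 h was 1.39 and 0.75 above that of Nr4a1 U17254_g_at on arrays numbered 1 and 2, and 1.67 and 0.39 above that of Nr4a2 U01146_s_at. These differences had the same sign on both numbers and were not tested. The 1 h and 2 h arrays numbered 1 differ in chip lot and recorded experiment, while those numbered 2 share both. They do not hold for the other Nr4a3 probe set: X86003_at changed by -0.25 and -0.94 on arrays numbered 1 and 2, beside -1.42 and -0.47 for U17254_g_at and -1.70 and -0.12 for U01146_s_at, so its difference from either gene changed sign between the numbers.

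By 4 h every tested NR4A probe set stood below its 1 h signal on both arrays. The share left was 14.7% and 26.5% for U17254_g_at, 9.96% and 13.6% for U01146_s_at, 26.8% and 40.9% for rc_AI176710_at and 10.6% and 19.0% for X86003_at. Nr4a2 U01146_s_at was called, with a log2 change of -3.02 ± 0.46 (SE; adjusted p = 0.0402), and it was the 1 NR4A probe set called lower, against 0.272% of all. The call was lost without any 1 of the control, 1 h or 4 h arrays, and without 2 h array 2 the count was 2. The median change of all probe sets was -0.13. With array number as a replicate block all 6 were called lower, against 2.45% of all probe sets, with adjusted p of 0.0137 for U17254_g_at, 0.0104 for U17254_at, 0.00176 for U01146_s_at, 0.00222 for L08595_at, 0.0413 for rc_AI176710_at and 0.00296 for X86003_at.

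Between 4 h and 2 h no NR4A probe set was called, where limma called 0.0% of all probe sets and 330 had an unadjusted p under 0.05. With the block 3 were lower, against 0.34% of all: U01146_s_at (-2.11), L08595_at (-2.42) and X86003_at (-1.93). Against control, the block left 5 NR4A probe sets called at 1 h and 5 at 2 h, where 1.14% and 2.19% of all were called higher. At 4 h it called 4, the Nr4a1 pair, L08595_at and rc_AI176710_at, against 4.25% of all.

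**Figure D3:**
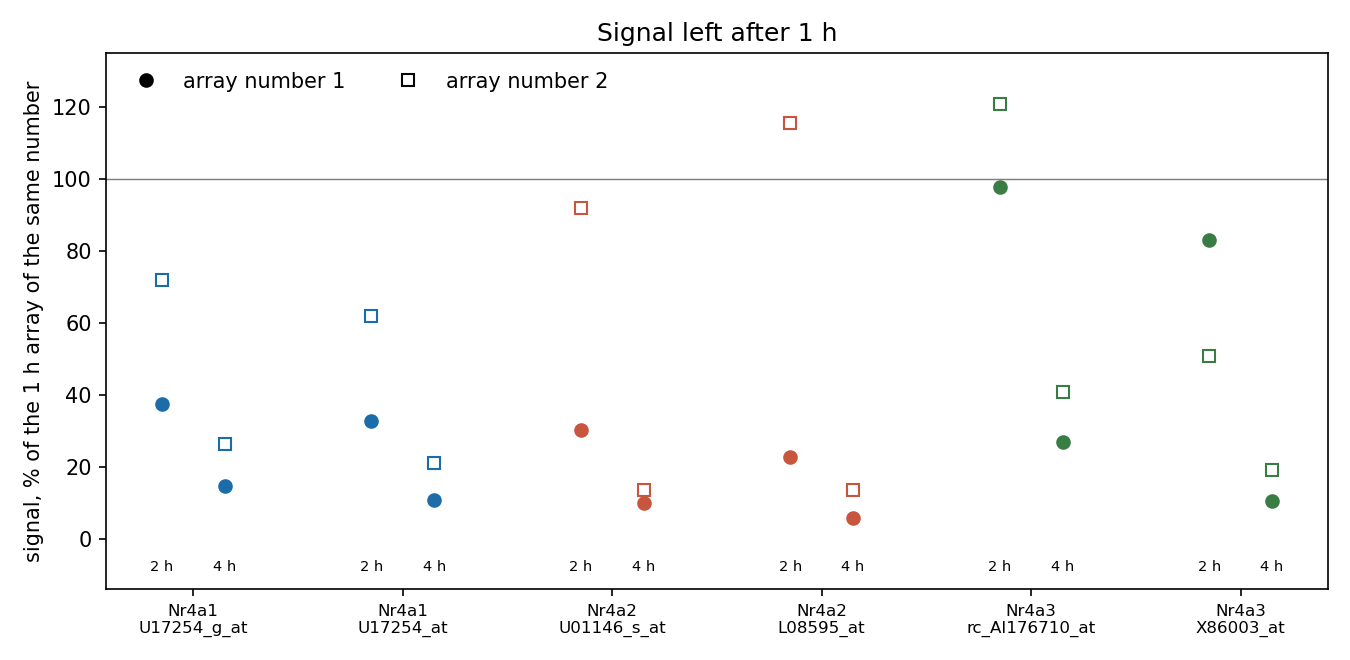
Signal at 2 h and 4 h as a percentage of the 1 h signal on the array of the same number, for the 6 tested NR4A probe sets, with filled circles for number 1 and open squares for number 2. At 2 h rc_AI176710_at of Nr4a3 held 97.9% and 121%, and at 4 h the shares of all 6 lay between 5.81% and 40.9%.

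Of the other nuclear receptors measured, none passed the test. Of 43 such genes listed, 32 were on the array and 24 had a kept probe set, and limma called 0 in each of the 3 comparisons with control, with 1, 0 and 3 at an unadjusted p under 0.05 at 1, 2 and 4 h. With the replicate block 3 were lower at 4 h, the thyroid hormone receptor Thrb (-1.94), Nr2f2 (-1.87) and the clock repressor Nr1d2 (-1.25), where 3.68% of all probe sets were called lower. Their median log2 fold change was -0.01, -0.11 and -0.27 at 1, 2 and 4 h, beside -0.05, -0.06 and -0.16 for all probe sets. At 1 h they ran from -0.59 for Rxrb to 0.99 for the vitamin D receptor Vdr. The retinoid X receptors, partners of Nr4a1 and Nr4a2, had 1 h fold changes of 0.00 (Rxra), -0.59 (Rxrb) and -0.32 (Rxrg), none called. Of 23 genes whose proteins bind NR4A receptors, 12 were kept and limma called 0, with 0, 1 and 2 at an unadjusted p under 0.05 and medians of -0.02, -0.11 and 0.19. Another probe set of Mapk14, a kinase of this list, was called at 4 h (U91847_s_at, adjusted p = 0.0485).

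Among 44 kinases and factors known to act on NR4A transcription, 22 were kept and 1 was called at each time. This was Crem, whose short form ICER represses CRE-driven genes, at 3.21, 4.13 and 4.30 (adjusted p = 0.00472, 0.000845 and 0.000771). Its probe set S66024_g_at read 3137 and 2089 at 1 h, 6118 and 3892 at 2 h and 5811 and 5189 at 4 h, against 278 and 240 in control, with 4 h above 1 h on both numbers. Another, U04835_at, read 1265 and 699 at 1 h and 1170 and 1604 at 4 h, against 154 and 77.9 in control, with 4 h below 1 h on arrays numbered 1. Creb1 itself had fold changes of 0.43, 0.50 and 0.37, none called. The list's medians were -0.01, -0.02 and -0.11. With the replicate block the NF-kB subunit Nfkb1 was also higher at 2 h (1.25) and 4 h (1.19). At 4 h the block also called the calcineurin subunit Ppp3ca higher (0.87) and the protein kinase A subunit Prkacb lower (-0.78). Over all probe sets the block called 2.19% higher at 2 h, and 4.25% higher and 3.68% lower at 4 h.

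Some other rapidly induced genes rose as well. Of 39 listed, 26 were kept, of which 6 rose and 1 fell at 1 h, 5 rose and 1 fell at 2 h, and 5 rose and 1 fell at 4 h, with medians of 0.39, 0.42 and 0.13. Over all probe sets, 0.493%, 0.783% and 0.953% were called higher and 0.034%, 0.187% and 0.579% lower at these times. With the replicate block the list had 8 higher and 2 lower at 1 h, 9 and 4 at 2 h, and 8 and 4 at 4 h, where 1.14%, 2.19% and 4.25% of all were called higher and 0.204%, 0.97% and 3.68% lower. Those higher at 1 h were Klf4, a factor that restrains smooth muscle growth (5.11), Crem (3.21), the bZIP factor Cebpb (2.48), the cAMP phosphodiesterase Pde4b (2.43), Junb, an AP-1 subunit (2.42), and the survival gene Ier3 (2.28). Klf6 was lower at 1 h (-2.60, adjusted p = 0.0486), and Egr1 was lower at 4 h (-1.94, adjusted p = 0.0308). Junb missed the threshold at 2 h (1.24, adjusted p = 0.260) and 4 h (0.98, adjusted p = 0.278) and passed it with the replicate block (adjusted p = 0.0299 and 0.0471), while Klf4 was called at 5.37 and 4.96. Probe sets of the same gene disagreed for Pde4b, Ier3, Junb, Klf10 and Egr1: Klf10 was called at all 3 times on rc_AI071299_at and on no other, and was counted above only with the block, which called its probe set of highest signal, rc_AI172476_at, at all 3 times. Of 18 kept genes of the list with a promoter window, 9 held the CRE core and 1 the full CRE, beside 21.2% and 1.83% of all windows. The list was drawn up from known CREB and serum response genes, and the 18 include genes that were not called.

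Of 37 genes described as NR4A targets in other tissues, 31 were on the array, 20 were kept and limma called 0 at each time, with 1, 3 and 3 at an unadjusted p under 0.05 at 1, 2 and 4 h, and medians of 0.09, 0.08 and -0.16. The cell cycle inhibitor Cdkn1b had fold changes of 1.09, 1.66 and 1.26 at 1, 2 and 4 h, none called, and its relative Cdkn1a 0.42, 1.40 and 1.48 (at 4 h adjusted p = 0.0838). With the replicate block Cdkn1a was higher at 2 h (adjusted p = 0.0109) and 4 h (adjusted p = 0.00480), and Bdnf was lower at 2 h (-0.99, adjusted p = 0.0458) and 4 h (-1.18, adjusted p = 0.0105). That was 1 higher and 1 lower of the 20 at each of these times. Over all probe sets the block called 2.19% and 4.25% higher and 0.97% and 3.68% lower at 2 h and 4 h. Another probe set of Cdkn1a was called at 4 h (adjusted p = 0.0429), and rc_AI030286_s_at of the neurotrophin Bdnf was called lower at 4 h (adjusted p = 0.00964), while S76799_at, the Bdnf probe set of highest mean signal, passed only with the block.

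**Figure D4:**
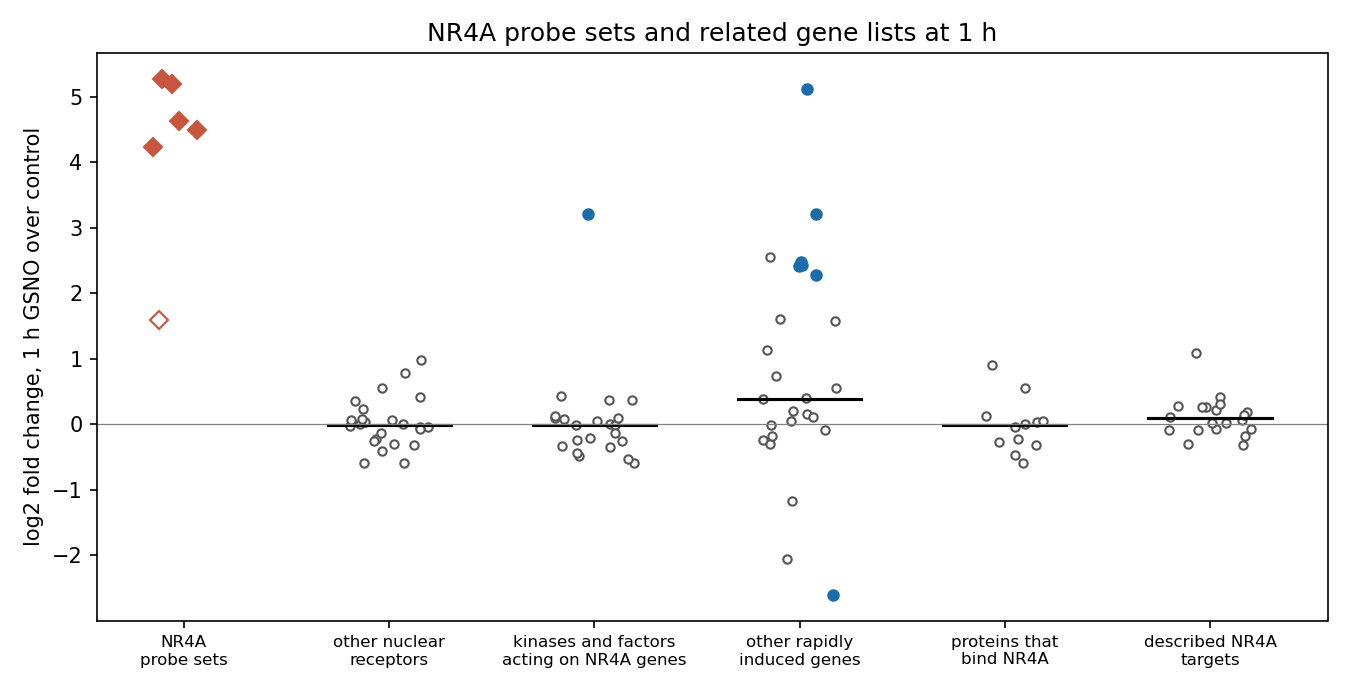
Log2 fold change at 1 h of GSNO against control for the genes of 5 lists beside the 6 tested NR4A probe sets (diamonds), with filled symbols for an adjusted p under 0.05 and black bars for each list's median. The 5 called NR4A probe sets lie at 4.24 and above. Of the listed genes, each drawn by its probe set of highest mean signal, Klf4 reaches 5.11. Probe sets not drawn include L26292_g_at of Klf4, which stood at 5.53, above all NR4A probe sets, and S66024_at of Crem, at 4.54.

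The genes whose signals ran most alike with each NR4A gene were found over the 8 arrays among 3473 other genes, by the Pearson correlation of log2 signal. Each NR4A gene was represented by its kept probe set of highest mean signal, and every other gene by its probe set of highest r. Points share arrays and groups, so r is a description, and it does not measure the size of a change. Nr4a1 ran closest with Nr4a3 (r = 0.959), the tubulin gene Tuba4a (0.958), Nr4a2 (0.958), the EGF receptor inhibitor Errfi1 (0.956) and Junb (0.936). Nr4a2 ran closest with Nr4a1 (0.973, on U17254_at), Tuba4a (0.964), Pdxkl1 (0.963), the stress phosphatase subunit Ppp1r15a (0.960) and Gdf10 (0.944). Nr4a3 ran closest with Klf4 (0.963), the isoprenoid enzyme Idi1 (0.960), Nr4a1 (0.959), Ier3 (0.945) and the stress cytokine Gdf15 (0.939). On the probe sets used, Pdxkl1, Ppp1r15a, Gdf10 and Idi1 were called at none of the 3 times. Their log2 fold changes at 1 h were 0.73, 1.71, 1.39 and 1.45, while the other genes named so far were called at 1 h. Nr4a2 and Nr4a3 were less alike, at r = 0.877, which placed Nr4a3 at rank 12 for Nr4a2 and Nr4a2 at rank 17 for Nr4a3. After the array-number means were removed, the closest gene was Errfi1 for Nr4a1 (0.978), Junb for Nr4a2 (0.9865) and Errfi1 for Nr4a3 (0.975). Nr4a3 then shared 3 of its 5 with those named for it above. Nr4a3 was represented in these correlations by rc_AI176710_at alone.

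**Figure D5:**
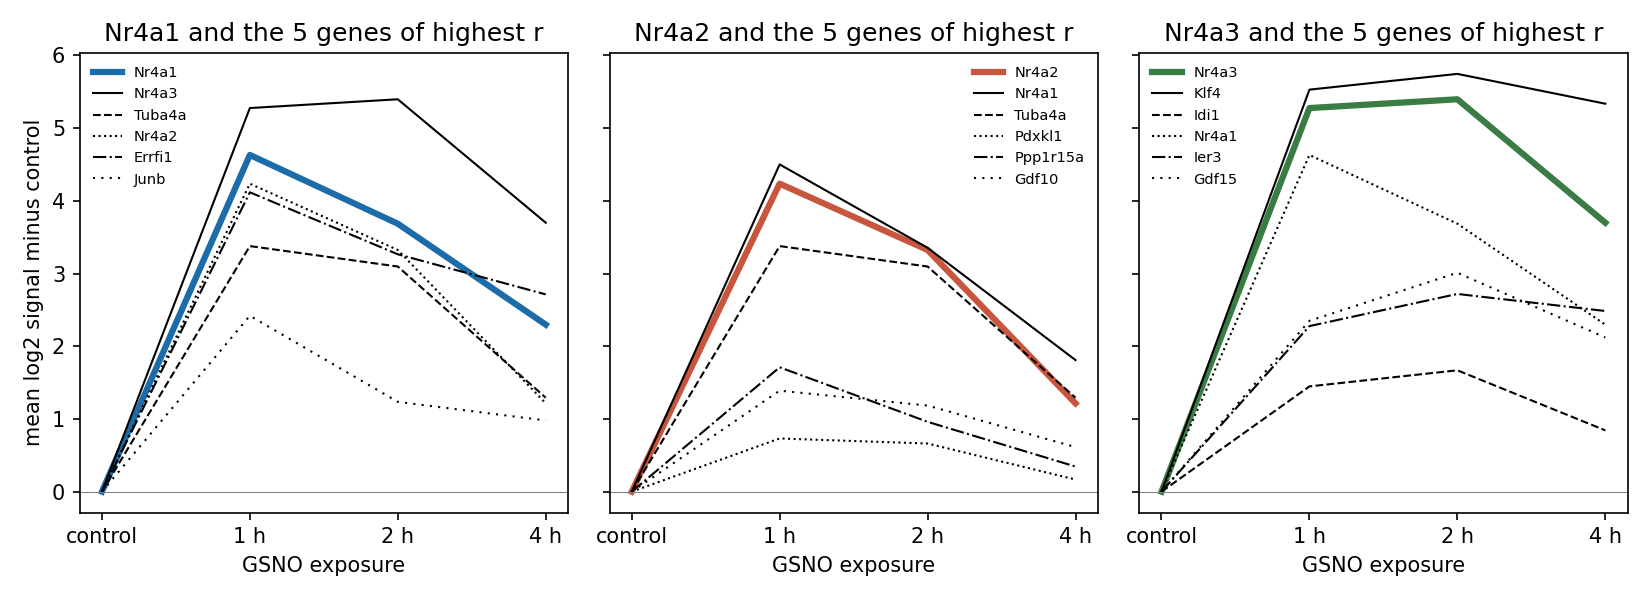
Mean log2 signal minus that of control (y axis) in control and at 1, 2 and 4 h of GSNO (x axis), for each NR4A gene (thick line) and the 5 genes of highest r with it (thin lines). Nr4a1 and Nr4a2 peak at 1 h, at 4.63 and 4.24, while Nr4a3 stands at 5.40 at 2 h and Klf4 on its probe set of highest r stays above 5 throughout exposure.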

How the data were processed

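Signals of 8 arrays in 4 groups were analysed. The deposited values are intensity signals, which the authors made with Affymetrix GeneChip 5.0 software, per the series design. Each was turned into log2 here after an offset of 21.1 was added, the median over arrays of the 20th percentile of the deposited intensity. A probe set was kept when 2 or more of the 8 arrays had it at or above their 40th percentile (5877 of 8740, after 59 control features were left out). Of 8799 probe sets, 7018 had 1 gene symbol in the platform annotation, 308 several and 1473 none, and 0 symbols changed through the gene ID.

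Tests used limma 3.58.1 in R 4.3.3 (lmFit, eBayes with a trend, 4 residual degrees of freedom), two-sided, with Benjamini-Hochberg adjustment over the 5877 and a threshold of 0.05. The fit was also run on simulated data in which arrays varied independently. That run could not show how deviations shared by arrays of the same number affect the calls. The array number marks separate scan runs in the deposited array records, and deviations from group means correlated between arrays of one number in all 6 pairs of groups (0.387 to 0.569), so the replicate block is given where it changes a call. No pair of arrays was identical. Members and lists were chosen with earlier results of these data known. Named were all NR4A probe sets, each list gene past the threshold in a comparison with control on its probe set of highest mean signal, 6 genes set by name (Rxra, Rxrb, Rxrg, Crem, Creb1, Junb) and the 5 most alike genes. Vdr, Cdkn1b, list genes named for a call with the block, and genes named for probe sets that disagree, were picked after their values were seen. Alternatives changed the offset, filter, scaling, variance trend, arrays fitted and block.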

Additional observations from a re-analysis of the deposited data

How the results depend on the processing

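Fold changes of the 6 tested NR4A probe sets against control kept their sign under every offset, filter, scaling, block and left-out array tried. Counts of called NR4A probe sets moved as follows. At 1 h 5 were called, and 1 to 5 with 1 array left out. At 2 h 5 were called, 2 when only the groups compared entered, and 2 to 5 with 1 array left out. At 4 h 1 was called, 2 after scaling to a common median, 4 with the replicate block, and 0 to 1 with 1 array left out. For 4 h minus 1 h the count was 1, and 2 with an offset of 100 or quantile normalization, 0 after scaling to a common median, without the variance trend or with only those groups, 6 with the replicate block, 5 with the recorded experiment as block, and 0 to 2 with 1 array left out. For 4 h minus 2 h it was 0, and 3 with the replicate block. The F test called 5, and 1 to 6 with 1 array left out. For 2 h minus 1 h, rc_AI176710_at turned to -0.30 with the experiment block, and L08595_at ran from -1.90 to 0.015 with 1 array left out. With rc_AI145834_at taken for Nr4a3, the fold changes were -0.15, -0.031 and -0.26 at 1, 2 and 4 h, and X86003_at gave -0.94 at 4 h. Over all probe sets, 31 were called at 1 h (79 with the replicate block, 5 to 27 with 1 array left out), 57 at 2 h (37 with only the groups compared, 186 with the replicate block, 152 with the experiment block, 19 to 52) and 90 at 4 h (466 and 165 with those blocks, 32 to 87). For 2 h minus 1 h, 0 were called, 1 under quantile normalization and 2 with the replicate block. For 4 h minus 1 h, 28 were called, 4 without the trend, 0 with only the groups compared, 300 and 201 with the blocks, 0 to 23 with 1 array left out. For 4 h minus 2 h, 0 were called, 32 and 1 with the blocks, 0 to 1 with 1 array left out. The F test called 67, 349 and 192 with the blocks, 23 to 53 with 1 array left out. Scaling to a common median turned the split at 4 h to 83 higher and 21 lower, beside 56 and 34, and that of 4 h minus 1 h to 18 and 6, beside 12 and 16. The cause of these differences was not tested. The number of arrays limits the precision, and no detection calls were used.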
